A study of Oryza sativa with 6 samples.

Results

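NAC6, SNAC1, NAC5 and NAC3, which encode stress-responsive transcription factors of rice, were lower in mature leaves of an SRL1 knockout (srl1-KO) than in leaves of the control without the knockout (non-KO). NAC4 had a lower mean as well, but its genotypes overlapped and the test was not passed. These 5 genes were taken by identifier from the 39477 loci of the deposited table, and all 5 were expressed highly enough to be tested. SRL1 (SEMI-ROLLED LEAF1) is a rice gene whose loss makes the leaf blade roll, and its product is thought to sit at the plasma membrane through a lipid anchor. The comparison asks what its knockout does to the leaf transcriptome.

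The srl1-KO plants carried a knockout of SRL1, and the labels describe the other plants as the control. Leaves of both genotypes were collected 60 days after germination from plants of a greenhouse held at 30 °C in the day and 25 °C in the night, with 3 libraries per genotype. Values given library by library stand in the order of replicates 1, 2 and 3. The labels name neither the cultivar nor the way the knockout was made. They speak of leaves of a single plant and do not tie libraries to plants, so the p-values measure the spread between these libraries, which may be technical.

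NAC proteins are a plant-specific family of transcription factors with a conserved DNA-binding domain at the N-terminus and a variable regulatory region at the C-terminus. A stress-responsive subgroup is induced in rice leaves by drought, salt, cold and abscisic acid, and several members also by jasmonate, wounding or infection. Overexpression of SNAC1, NAC6 or NAC5 is known to raise the tolerance of rice to drought or salt. The name NAC6 (also SNAC2), and likewise NAC5, NAC3 and NAC4, stands in the RefSeq gene table of the assembly ASM3414082v1 on the chromosome that the identifier gives. The name SNAC1 is not in that table and was used for Os03g0815100 without this check.

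Levels are given in FPKM (fragments per kilobase, corrected for the size of the library), a scale per length on which genes can be set side by side. Log2 changes are srl1-KO minus non-KO in log2(FPKM + 1), so that changes of weakly expressed genes come out too small. The FPKM values of a library added up to 598611 to 628270, and the srl1-KO libraries held 19316 to 19342 loci at 1 FPKM or more, against 18861 to 19053 loci for the non-KO libraries. The locus taken as SRL1 (Os07g0102300, an assignment from general knowledge) stood at 1.62 to 2.22 FPKM in srl1-KO and at 2.50 to 3.30 FPKM in non-KO (limma adjusted p = 0.107). Its transcript was thus present in all 6 libraries, and its level does not settle the genotype labels. Of 6 leaf markers (Rubisco small subunit, Rubisco activase and chlorophyll-binding protein genes), 1 small subunit locus fell, a call lost when any 1 library was left out, and none rose. CAB2R, a chlorophyll-binding protein gene, was higher in srl1-KO without overlap but narrowly missed the threshold. It stood at 1754 to 3537 FPKM in srl1-KO and 943 to 1729 FPKM in non-KO (limma adjusted p = 0.0523), and passed in 6 of 15 alternatives in processing. The summed level of the 6 leaf markers was 9784 to 12961 FPKM in srl1-KO and 9041 to 12203 FPKM in non-KO. No marker of other cell types passed the test. The 3 cellulose synthase genes of secondary-wall cells summed to 2.82 to 8.07 FPKM in srl1-KO and 2.05 to 18.4 FPKM in non-KO, SUT1 of the phloem was at 41.1 to 61.8 FPKM in srl1-KO and 38.3 to 47.7 FPKM in non-KO, and PCNA of dividing cells averaged 11.8 ± 0.754 FPKM in srl1-KO and 9.30 ± 2.20 FPKM in non-KO. OSH1 of the meristem did not exceed 0.0171 FPKM, and the root silicon transporter gene LSI2 was listed at 0 throughout, although LSI1, of the same transport pathway, averaged 12.5 ± 4.52 FPKM in srl1-KO and 12.8 ± 5.54 FPKM in non-KO (SD, n = 3 each). In such bulk samples fewer cells of a type and less RNA per cell cannot be told apart.

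SNAC1, whose protein acts in guard cells in the drought response, changed most. SNAC1 (Os03g0815100, chromosome 3) was at 28.4, 17.2 and 9.03 FPKM across the srl1-KO libraries, against 188, 236 and 159 FPKM across the non-KO libraries. Every srl1-KO library lay far below every non-KO library, and the srl1-KO libraries differed among themselves by a factor of 3.15. The mean was 18.2 ± 9.73 FPKM in srl1-KO and 195 ± 39.0 FPKM in non-KO (SD, n = 3 each), a 10.7-fold lower level in srl1-KO. The log2 change was -3.46 ± 0.38 (SE), with a 95% interval from -4.37 to -2.55 (limma, adjusted p = 0.00147). Among the tested loci 5625 had a higher mean level than SNAC1 in srl1-KO, against 429 in non-KO.

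NAC6 had the highest level of the 5 genes in every library. NAC6 (Os01g0884300, chromosome 1) is induced by cold, drought, salt and wounding, and its product is known to promote root traits and nicotianamine synthesis under drought. It was at 132, 123 and 112 FPKM across the srl1-KO libraries, against 354, 506 and 396 FPKM across the non-KO libraries. The genotypes did not overlap, and the srl1-KO libraries lay close together. The mean was 122 ± 9.75 FPKM in srl1-KO and 419 ± 78.5 FPKM in non-KO (SD, n = 3 each), 3.43-fold lower in srl1-KO. The log2 change was -1.76 ± 0.16 (SE; 95% interval from -2.14 to -1.37; limma adjusted p = 0.000723).

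NAC3 fell without overlap between genotypes. NAC3 (Os07g0225300, chromosome 7), a gene responsive to abscisic acid and salt, was at 21.2, 14.8 and 10.8 FPKM across the srl1-KO libraries, against 56.5, 67.4 and 61.3 FPKM across the non-KO libraries. The mean was 15.6 ± 5.27 FPKM in srl1-KO and 61.7 ± 5.50 FPKM in non-KO (SD, n = 3 each), 3.96-fold lower in srl1-KO. The log2 change was -1.96 ± 0.23 (SE; 95% interval from -2.51 to -1.41; limma adjusted p = 0.00185).

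NAC5 fell least of the 4 genes that passed the test. NAC5 (Os11g0184900, chromosome 11), whose product can bind the promoter of the LEA3 dehydration gene, was at 22.0, 24.3 and 41.5 FPKM across the srl1-KO libraries, against 78.2, 76.4 and 67.1 FPKM across the non-KO libraries. The genotypes did not overlap, and the srl1-KO library with the highest value, replicate 3, was the lowest for the other 4 genes. The mean was 29.3 ± 10.6 FPKM in srl1-KO and 73.9 ± 5.99 FPKM in non-KO (SD, n = 3 each), 2.53-fold lower in srl1-KO. The log2 change was -1.36 ± 0.24 (SE; 95% interval from -1.92 to -0.80; limma adjusted p = 0.00791).

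NAC4, an inducer of hypersensitive cell death in rice immunity, was the least expressed and the most variable. NAC4 (Os01g0816100, chromosome 1) was at 12.5, 6.27 and 1.29 FPKM across the srl1-KO libraries, against 14.3, 26.3 and 12.5 FPKM across the non-KO libraries. The srl1-KO replicate 1 and the non-KO replicate 3 had nearly the same level, while the srl1-KO values spread over a factor of 9.67. The mean was 6.69 ± 5.62 FPKM in srl1-KO and 17.7 ± 7.50 FPKM in non-KO (SD, n = 3 each). The log2 change of -1.55 ± 0.64 (SE) did not pass the test (limma adjusted p = 0.116, unadjusted p = 0.0472), and its 95% interval ran from -3.07 to -0.03. Without srl1-KO replicate 1 it passed at -2.12 (limma adjusted p = 0.0469), and without srl1-KO replicate 3 it was -0.85 (limma adjusted p = 0.172).

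**Figure D1:**
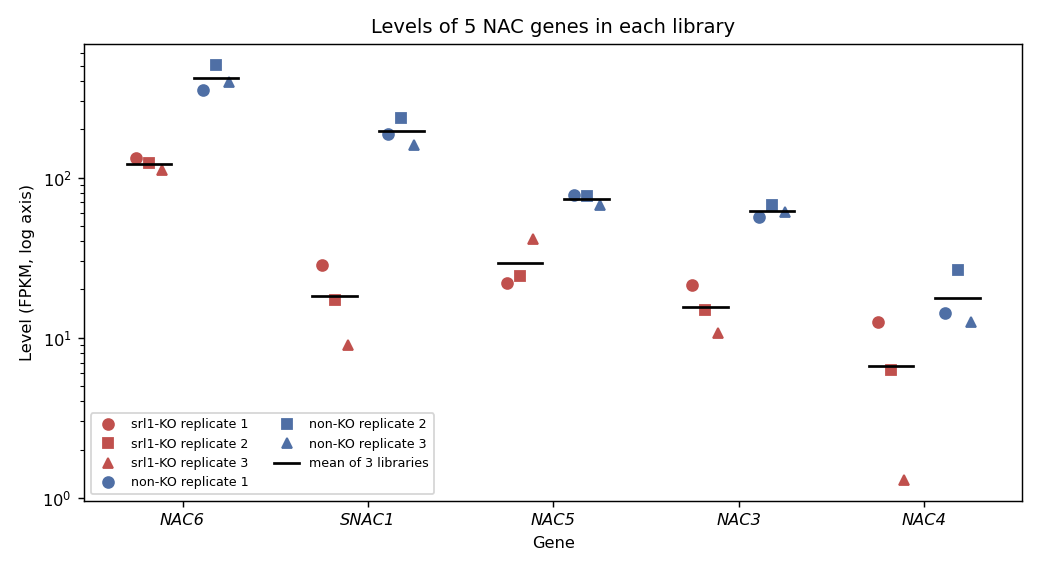
Level in FPKM (log axis) of the 5 NAC genes in each of 3 srl1-KO and 3 non-KO libraries, with points for libraries and black lines for the mean of each genotype. For NAC6, SNAC1, NAC5 and NAC3 all srl1-KO points lie below all non-KO points, and for NAC4 the srl1-KO points run from 1.29 to 12.5 FPKM and meet the non-KO points, which run from 12.5 to 26.3 FPKM.

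Of the 5 genes 4 fell, none rose and 1 missed the threshold, and the median log2 change was -1.76. Over all tested loci 11.9% fell and 27.2% were called in either direction (limma adjusted p under 0.05; 5321 of 19556 loci, and 2959 without srl1-KO replicate 2), and the median log2 change was 0.11. Rises made up 56.3% of all calls with the values as deposited and 40.5% after rescaling by trimmed-mean factors, which moved the median of all loci to 0.000126. All srl1-KO libraries lay below all non-KO libraries for 4 of the 5 genes, against 17.8% of tested loci, and 47.1% of tested loci were without overlap in either direction. By a two-sided exact permutation test each of these 4 genes reached p = 0.1, below which 3 libraries against 3 cannot go, and NAC4 reached p = 0.2. The number of tested loci with a log2 change below that of the gene was 111 for SNAC1, 531 for NAC3, 677 for NAC6, 845 for NAC4 and 1017 for NAC5.

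**Figure D2:**
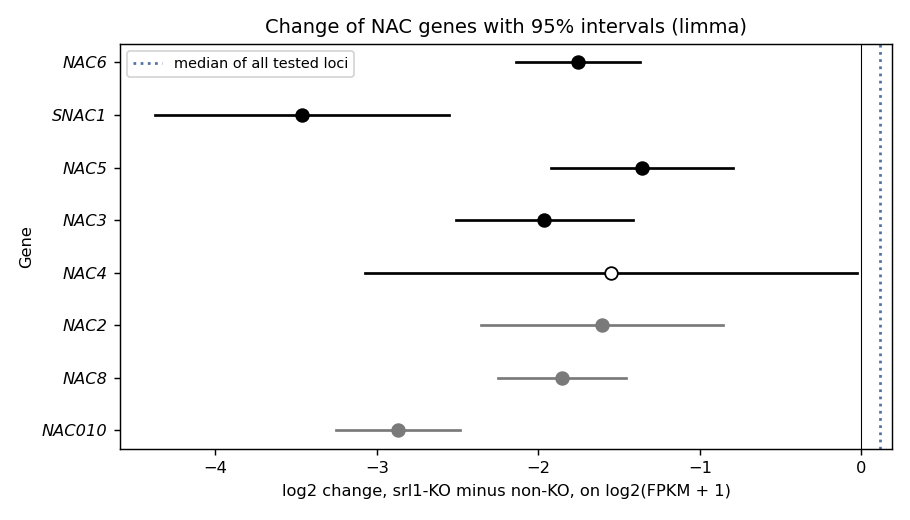
Log2 change (srl1-KO minus non-KO, on log2(FPKM + 1)) of the 5 NAC genes (black) and of 3 other NAC genes (grey), with 95% intervals from limma. Filled points passed the adjusted threshold, and the open point, NAC4 at -1.55, did not. The dotted line marks the median of all tested loci, 0.11. Apart from SNAC1, NAC identifiers whose names were not checked are left out, of which 8 were tested, 3 rose and 2 fell.

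The summed level of the 5 genes was 216, 185 and 175 FPKM across the srl1-KO libraries, against 691, 912 and 696 FPKM across the non-KO libraries. Each non-KO library thus held several times the level of any srl1-KO library. The mean sum was 192 ± 21.3 FPKM in srl1-KO and 766 ± 126 FPKM in non-KO (SD, n = 3 each), 3.99-fold lower in srl1-KO. The share of NAC6 in the sum lay between 61.0% and 66.2% in srl1-KO and between 51.2% and 56.9% in non-KO. That of SNAC1 lay between 5.17% and 13.2% in srl1-KO and between 22.9% and 27.2% in non-KO. The shares of NAC5, NAC3 and NAC4 overlapped between genotypes.

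**Figure D3:**
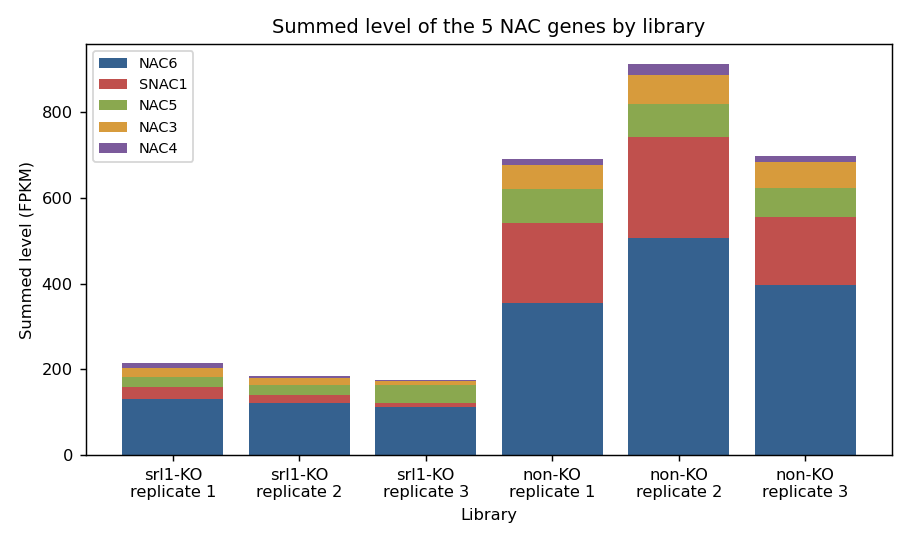
Summed level in FPKM of the 5 NAC genes in each library, with each gene as a segment of the bar. The srl1-KO bars end between 175 and 216 FPKM and the non-KO bars between 691 and 912 FPKM, with NAC6 as the tallest segment in all 6.

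NAC6 had the highest and NAC4 the lowest level in all 6 libraries, and the order between them varied in srl1-KO. There the order of the means was NAC6, NAC5, SNAC1, NAC3 and NAC4, with SNAC1 above NAC5 in replicate 1, between NAC5 and NAC3 in replicate 2 and below NAC3 in replicate 3. The srl1-KO range of SNAC1 overlapped those of NAC5, NAC3 and NAC4, and the range of NAC3 overlapped that of NAC4, but NAC5 and NAC3 did not overlap. In all 3 non-KO libraries, as in srl1-KO replicate 1, the order was NAC6, SNAC1, NAC5, NAC3 and NAC4. In non-KO only the neighbours NAC5 (67.1 to 78.2 FPKM) and NAC3 (56.5 to 67.4 FPKM) overlapped in range. The ratio of NAC6 to SNAC1 was 4.63, 7.12 and 12.4 in srl1-KO replicates 1, 2 and 3, against 1.88, 2.14 and 2.49 in non-KO replicates 1, 2 and 3.

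The log2 change of SNAC1 was lower than that of each of the other 4 genes. The difference was -2.10 ± 0.73 from NAC5, -1.91 ± 0.35 from NAC4, -1.71 ± 0.40 from NAC6 and -1.50 ± 0.23 from NAC3 (SE, from the within-library difference of 2 genes in log2(FPKM + 1)). In each of these 4 pairs the genotypes did not overlap, and the exact permutation p, two-sided, was at its minimum of 0.1, or 0.25 after Benjamini-Hochberg adjustment over the 10 pairs of genes. None of the 6 pairs among NAC6, NAC5, NAC3 and NAC4 was without overlap, with differences from -0.60 to -0.19 and exact permutation p from 0.4 to 0.9. No pair could pass at this number of libraries, so these values do not show that those 4 genes changed alike.

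Within a genotype the genes also varied together in part. SNAC1, NAC6, NAC3 and NAC4 were highest in replicate 1 and lowest in replicate 3 of srl1-KO, an order found at 19.3% of tested loci. NAC5 had the opposite order, found at 22% of tested loci. SNAC1 and NAC4 differed at least 3-fold between srl1-KO replicates 1 and 3 in this direction, as did 2.74% of tested loci. In non-KO the same 4 genes were highest in replicate 2, as were 32.1% of tested loci, and NAC5 was highest in replicate 1.

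By the root mean square difference of log2(FPKM + 1) profiles over the 6 libraries, each centred on its own mean, the nearest pair of the 5 genes was NAC6 and NAC3 (0.24). SNAC1 stood 0.78 from its nearest fellow gene, NAC3, and 317 tested loci were nearer to it than that. For NAC6, NAC5, NAC3 and NAC4 the tested loci nearer than the nearest fellow gene numbered 175, 828, 75 and 138. Among the named genes of the lists, the one nearest to SNAC1 was TIFY11A (0.35), to NAC6 and to NAC3 it was NAC8 (0.17 and 0.25), to NAC5 it was PP2C68 (0.30) and to NAC4 it was TIFY11C (0.62). Over all annotated loci the nearest to SNAC1 was Os02g0814000 (0.14), at 40.3, 24.0 and 10.4 FPKM across the srl1-KO libraries and 230, 358 and 230 FPKM across the non-KO libraries. The nearest to NAC6 was Os03g0264150 (0.05), at 1.89, 1.55 and 1.37 FPKM across the srl1-KO libraries and 6.07, 8.92 and 6.85 FPKM across the non-KO libraries. The products of these 2 loci are not named in these sources.

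The genes lie apart, on chromosomes 1, 3, 7 and 11. Only NAC6 and NAC4 share a chromosome. Of the 50 tested loci whose identifiers flank the 5 genes, 5 on each side of each gene, 5 fell and 9 rose. Over all tested loci 11.9% fell and 15.3% rose, so these counts lay near the general share. Of the 10 neighbours of NAC6, 3 fell and 3 rose. The median log2 change of the neighbours was between 0.06 and 0.39 for each gene, against 0.11 over all tested loci.

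Other NAC genes that the reference table names fell where they were tested, while NAC identifiers without that check went both ways. Of 6 named genes, 3 were tested and all 3 fell. NAC8 and NAC010 among them were added later, from names in that table. Over all tested loci 11.9% fell and 15.3% rose. NAC8 (Os01g0261200), also named NTL3 and known as a membrane-bound NAC factor of the heat response, averaged 25.5 ± 2.13 FPKM in srl1-KO and 96.0 ± 19.3 FPKM in non-KO (SD, n = 3 each; log2 change -1.85 ± 0.17 SE; limma adjusted p = 0.000691). NAC010 (Os07g0566500) averaged 1.11 ± 0.285 FPKM in srl1-KO and 14.4 ± 2.11 FPKM in non-KO (SD, n = 3 each; log2 change -2.87 ± 0.16 SE; limma adjusted p = 0.000127). NAC2 (Os04g0460600), a factor with effects on tillering, averaged 3.08 ± 1.18 FPKM in srl1-KO and 11.6 ± 4.34 FPKM in non-KO (SD, n = 3 each; log2 change -1.61 ± 0.31 SE; limma adjusted p = 0.0121). ONAC045, NAC7 and NAC077 had means of 0.0112 to 0.285 FPKM in srl1-KO and 0.0169 to 0.298 FPKM in non-KO and were not tested. A further 12 identifiers had been written down as NAC genes but their names are not in the table, so their identity was not checked. Of these, 8 were tested, and 3 rose, 2 fell and 3 did not pass the test, with a median log2 change of 0.10. The largest change among these 8 was a rise, that of Os08g0200600. It averaged 12.7 ± 3.13 FPKM in srl1-KO and 0.476 ± 0.401 FPKM in non-KO (SD, n = 3 each; log2 change 3.22 ± 0.25 SE; limma adjusted p = 0.000408). This identifier reached the 1 FPKM needed for a test only through the srl1-KO libraries.

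Of 5 identifiers written down as genes reported elsewhere as targets of these factors, the table names 3, and none of these 3 was expressed highly enough for a test. LEA3 (Os05g0542500), a late embryogenesis abundant gene reported as a target of NAC5, was at 0.0272, 0.964 and 0 FPKM across the srl1-KO libraries and at 0.0285 to 0.0601 FPKM in non-KO. NAS1 and NAS2, the nicotianamine synthase genes reported as targets of NAC6, had means of 0.0346 and 0.168 FPKM in srl1-KO and 0.0315 and 0.0648 FPKM in non-KO. At these levels a change of the 3 genes could not be judged. Of the other 2 identifiers, whose identity was not checked, 1 fell (2.22 to 2.81 FPKM in srl1-KO and 4.64 to 7.67 FPKM in non-KO; limma adjusted p = 0.0106) and 1 did not pass the test (22.4 ± 0.803 FPKM in srl1-KO and 23.7 ± 7.47 FPKM in non-KO; SD, n = 3 each; limma adjusted p = 0.924).

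Most named genes of the pathway of abscisic acid, a main inducer of these NAC genes, fell. Of 11 named genes 8 fell and 3 missed the threshold, with a median log2 change of -1.43. This compares with 11.9% of all tested loci that fell. Like the other lists, this one was chosen with earlier results of these data known. PP2C51, 1 of the 8, averaged 0.933 FPKM in srl1-KO and reached the 1 FPKM needed for a test only through the non-KO libraries. ABA8OX1 (Os02g0703600), an 8'-hydroxylase that breaks the hormone down, averaged 3.78 ± 1.12 FPKM in srl1-KO and 368 ± 30.7 FPKM in non-KO (SD, n = 3 each; log2 change -6.29 ± 0.18 SE; limma adjusted p = 1.98e-05). ABA8OX2, of the same hydroxylase family, was level at 16.6 ± 2.53 FPKM in srl1-KO and 16.6 ± 3.33 FPKM in non-KO (limma adjusted p = 0.995). BZIP23, a transcription factor of abscisic acid signalling, averaged 13.9 ± 0.406 FPKM in srl1-KO and 96.1 ± 10.2 FPKM in non-KO (limma adjusted p = 5.3e-05). PP2C06, of the phosphatase family that represses the pathway, averaged 31.7 ± 0.597 FPKM in srl1-KO and 117 ± 11.6 FPKM in non-KO (limma adjusted p = 0.000141). NCED3, which encodes an enzyme of abscisic acid synthesis and was singled out after its values were seen, averaged 4.29 ± 1.07 FPKM in srl1-KO and 42.3 ± 11.5 FPKM in non-KO (limma adjusted p = 0.000387). Of 6 further identifiers of this list, whose identity was not checked, 5 were tested, of which 1 rose, 2 fell and the other 2 missed the threshold. Both that fell reached the 1 FPKM needed for a test only through the non-KO libraries. Os07g0154100 averaged 0 FPKM in srl1-KO and 39.5 FPKM in non-KO, and Os12g0617400 averaged 0.809 FPKM in srl1-KO and 2.03 FPKM in non-KO. The one that rose, Os02g0704000, averaged 398 ± 86.2 FPKM in srl1-KO and 145 ± 34.0 FPKM in non-KO (SD, n = 3 each; limma adjusted p = 0.00523), so the direction was not shared by all identifiers of the list. The part of abscisic acid in the NAC levels was not tested.

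DREB factors, which act beside the NAC factors in cold and drought responses, also fell. All 4 named genes fell, with a median log2 change of -4.45, against 11.9% of all tested loci that fell. Of 2 unchecked identifiers in a list with them 1 fell and 1 did not pass the test. The identifier that fell, Os03g0820300, averaged 0.465 FPKM in srl1-KO and 19.0 FPKM in non-KO. It reached the 1 FPKM needed for a test only through the non-KO libraries. DREB1A and DREB1C averaged below 1 FPKM in srl1-KO. They reached the mean of 1 FPKM needed for a test only through the non-KO libraries, though they were also called with no filter. The log2 change of DREB1C ran from -6.99 to -4.72 over the alternatives in processing. DREB1C (Os06g0127100) averaged 0.208 ± 0.151 FPKM in srl1-KO and 35.5 ± 8.37 FPKM in non-KO (log2 change -4.90 ± 0.19 SE; limma adjusted p = 5.02e-05). DREB1B averaged 1.11 ± 0.708 FPKM in srl1-KO and 46.7 ± 18.0 FPKM in non-KO (limma adjusted p = 0.000317), and DREB1A averaged 0.743 ± 0.207 FPKM in srl1-KO and 39.5 ± 21.7 FPKM in non-KO (limma adjusted p = 0.000424). The fall of DREB2A did not pass without each of 5 of the 6 libraries in turn, among other settings (adjusted p up to 0.103). Of 7 dehydration genes 3 were tested, of which LIP9 fell and 2 missed the threshold, with a median log2 change of -0.70. LIP9 (Os02g0669100), a dehydrin gene, averaged 19.1 ± 3.83 FPKM in srl1-KO and 153 ± 60.5 FPKM in non-KO (log2 change -2.86 ± 0.33 SE; limma adjusted p = 0.00173).

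Among 6 named jasmonate genes 5 fell and 1 missed the threshold, with a median log2 change of -3.28. The gene that missed it, AOS2, had a higher mean in srl1-KO. Its level was 7.59, 2.17 and 0.306 FPKM across the srl1-KO libraries and 0.0847 to 0.406 FPKM in non-KO (limma adjusted p = 0.14). Both further identifiers of the list, which were not checked, fell. The share that fell among all tested loci was 11.9%. JAZ13, a repressor of jasmonate signalling that the hormone itself induces, averaged 1.92 ± 2.22 FPKM in srl1-KO and 84.6 ± 15.3 FPKM in non-KO (limma adjusted p = 0.000908). AOC (Os03g0438100), an enzyme of jasmonate synthesis, averaged 112 ± 15.5 FPKM in srl1-KO and 240 ± 14.0 FPKM in non-KO (limma adjusted p = 0.0023). TIFY11A (Os03g0180800), another repressor and the named gene nearest in profile to SNAC1, was at 1.88, 0.485 and 0.159 FPKM across the srl1-KO libraries and at 15.4, 34.0 and 23.5 FPKM across the non-KO libraries (limma adjusted p = 0.00125). Its mean of 0.843 FPKM in srl1-KO was below the 1 FPKM needed for a test, which it reached only through the non-KO libraries. All 6 jasmonate genes were highest in replicate 1 and lowest in replicate 3 of srl1-KO, the order of SNAC1, NAC6, NAC3 and NAC4. Over all tested loci 19.3% had this order. The part of jasmonate or of a difference between leaves in the NAC levels was not tested. The fall of TIFY11C, the named gene nearest to NAC4, did not pass without srl1-KO replicate 2, without any 1 of the non-KO libraries or with no filter (adjusted p up to 0.0812).

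**Figure D4:**
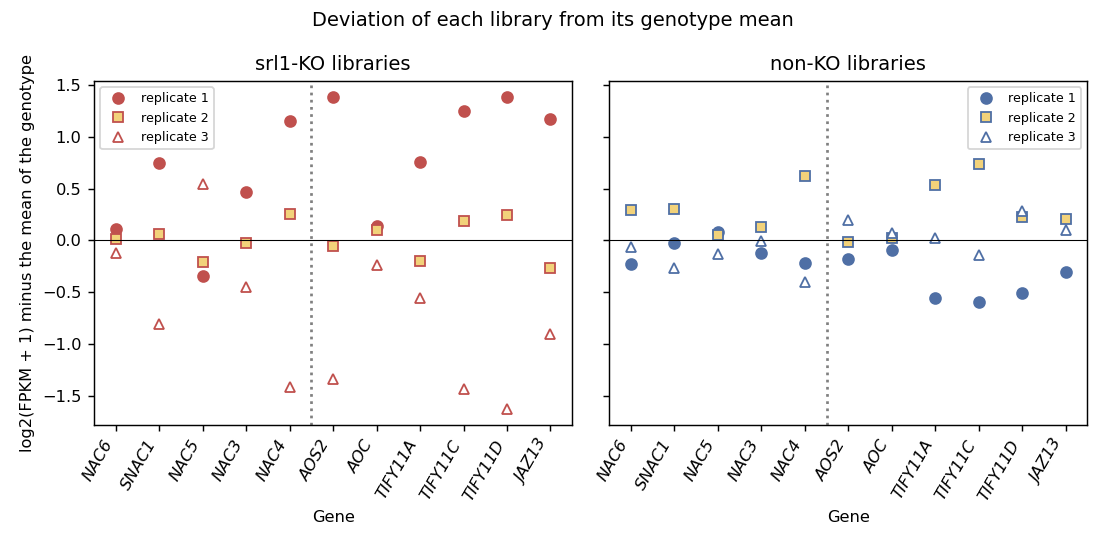
Deviation of log2(FPKM + 1) of each library from the mean of its genotype, for the 5 NAC genes (left of the dotted line) and 6 jasmonate genes (right of it), in srl1-KO and in non-KO. In srl1-KO replicate 1 lies highest and replicate 3 lowest for all genes shown but NAC5, where the order is the opposite. Over all tested loci 19.3% had the former order and 22% the opposite.

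In the lists for chlorophyll breakdown and the clock no tested identifier fell. None of 4 named chlorophyll breakdown genes passed the test, with a median log2 change of 0.28, and NYC1 averaged 227 ± 29.3 FPKM in srl1-KO and 198 ± 7.74 FPKM in non-KO (limma adjusted p = 0.303). Of 3 further identifiers of that list, whose identity was not checked, 2 rose and 1 did not pass the test. Of 6 clock genes PRR95 rose, at 317 ± 43.7 FPKM in srl1-KO and 141 ± 28.6 FPKM in non-KO (limma adjusted p = 0.00526), and 5 did not pass the test, with a median log2 change of -0.03, nor did 1 further identifier that was not checked. Whether the leaves of both genotypes were collected at the same hour is not given in the sources used here.

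**Figure D5:**
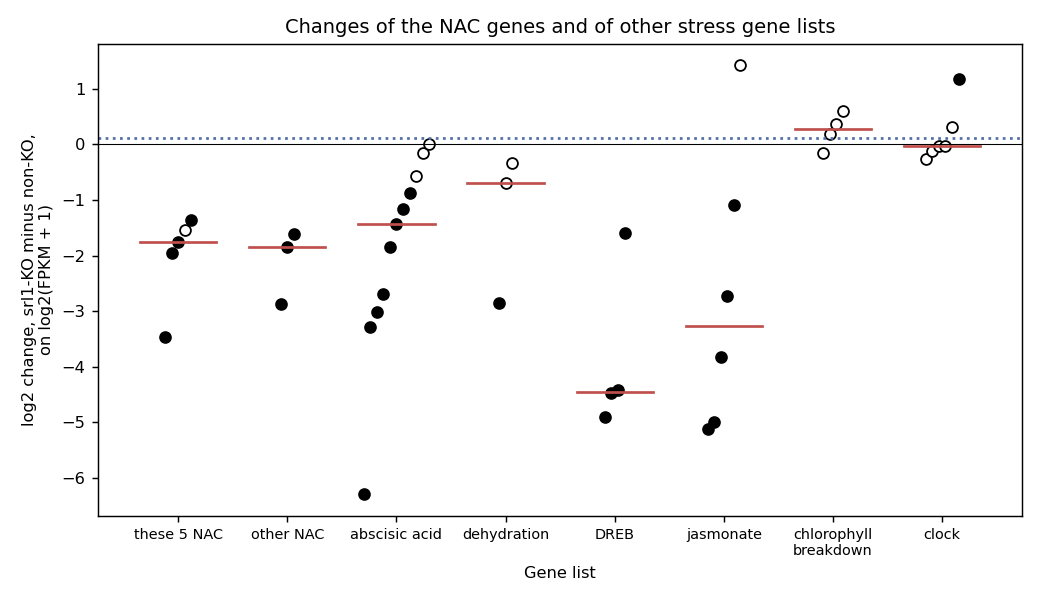
Log2 change (srl1-KO minus non-KO, on log2(FPKM + 1)) of each tested gene named in 8 gene lists, with a red line at the median of the list and a dotted line at the median of all tested loci. Apart from SNAC1, identifiers whose names were not checked are left out. Among these were 8 tested NAC identifiers, of which 3 rose and 2 fell. Filled points passed the adjusted threshold. The 5 NAC genes lie between -3.46 and -1.36, the DREB list has the lowest median (-4.45), and the medians of the chlorophyll breakdown and clock lists lie at 0.28 and -0.03.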

How the data were processed

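Poly(A) RNA of 6 leaf samples was sequenced, per the labels' protocols. The authors deposited FPKM values, 1 column per library. HISAT2, DESeq2 and the build IRGSP-1.0 are listed, without roles, per the submitters' processing notes. How the FPKM values were made, with which annotation and whether by strand, is not stated in these sources. FPKM is relative to the total, so large changes in abundant genes shift all others. Whole reads could not be recovered: among loci under 0.1 FPKM, only 3.39% to 4.97% shared the most frequent ratio between libraries. The depth is therefore unknown, and no count test was used.

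Loci whose mean reached 1 FPKM were compared as log2(FPKM + 1) with limma 3.58.1 in R 4.3.3 (eBayes with trend, two-sided, Benjamini-Hochberg over 19556 loci, threshold 0.05). The fit was tested on simulated data. Single genes were also compared by exact permutation tests in scipy 1.17.1. Alternatives were other pseudocounts, filters, scalings, weights, the replicate block and leaving out each library.

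The members and lists were chosen with earlier results of these data known, and list identifiers come from general knowledge. Of 95 identifiers, 64 had their name on the same chromosome of the RefSeq table, and 211 of 211 pairs of such names on a chromosome, family copies aside, stood in the same order. Apart from SNAC1 and SRL1, only these are named. NAC8, NAC7, NAC010 and NAC077 were added later, from names in that table. Named were all 5 members, the tested NAC genes, up to 3 called genes of each other list by smallest adjusted p (or else the most expressed), and the nearest profiles. ABA8OX2, PP2C51, DREB2A, AOS2 and CAB2R were named to state limits. The labels do not say that replicate numbers pair libraries. No 2 libraries held identical values.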

Additional observations from a re-analysis of the deposited data

How the results depend on the processing

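SNAC1, NAC6, NAC5 and NAC3 kept their fall and their side of the threshold in all 15 alternatives. The log2 change ran from -3.83 to -3.06 for SNAC1, from -1.88 to -1.61 for NAC6, from -1.63 to -1.19 for NAC5 and from -2.20 to -1.74 for NAC3, with the highest limma adjusted p at 0.0353 for NAC5 without srl1-KO replicate 2. NAC4 was lower in srl1-KO in all 15 and passed in 1. When 1 library was left out, its log2 change ran from -2.12 to -0.85 (adjusted p from 0.0469 to 0.265), and all loci called ran from 2959 to 4638. Of the 14 identifiers first listed as other NAC genes 9 were tested and 6 were called, of which 3 rose and 3 fell. Over all tested loci 27.2% were called. With the filter at 5 FPKM, where fewer loci are tested, 3 of the 14 were called. With the replicate block 4 of the 5 members were called, and the total was 3649 (SNAC1 adjusted p = 0.00505). Between genotypes, the deviations of libraries with the same number correlated at -0.0537, 0.0451 and 0.0167, so the numbers were not used as pairs. The depth is unknown, so no counting error can be given for low genes such as LEA3, and the levels of near-identical genes depend on how the authors assigned shared reads.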
